A study of Mus musculus with 18 samples.

Results

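Macrophage-like RAW cells that had been stimulated with R848 for 22 h in the presence of apilimod were compared with cells stimulated for the same time without it, across all genes measured. The comparison uses 3 of the 18 arrays of the series. R848+apilimod at 22 h (1 array, R848 at 0.1 mM and apilimod at 1 uM) was set against the mean of R848+API09 at 22 h (1 array, R848 at 0.1 mM and API09 at 1 uM) and R848 alone at 22 h (1 array, 0.1 mM), here called the R848 controls. R848 alone served as a second control, because the R848+API09 array of this hour was dimmer than the others. The R848 dose is high for such an agonist and may be an error of unit in the labels. Cells left in medium for 22 h (1 array) are given for orientation. RAW cells are a mouse macrophage cell line kept in culture, so all arrays describe 1 line. Of 45101 probe sets on these Affymetrix mouse arrays, 12257 genes were bright enough to be tested.

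R848 acts on Toll-like receptor 7, an endosomal sensor of single-stranded RNA, in mouse macrophages. Apilimod inhibits PIKfyve, the lipid kinase that makes phosphatidylinositol 3,5-bisphosphate on late endosomes and lysosomes, and was first described as a blocker of interleukin-12 and interleukin-23 production. Loss of PIKfyve activity enlarges endolysosomes into vacuoles. MiT/TFE transcription factors such as TFEB, which drive lysosomal genes, enter the nucleus when the lysosome is disturbed. API09 is an analog of apilimod that the series design calls inactive.

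Each arm had 1 array at this hour, so the spread was taken from the differences between the R848+API09 and R848 arrays at 1, 3, 7 and 22 h and between the 2 medium arrays at 0 h. Nothing in the labels says that arrays came from separate cultures, so the p-values cover array-to-array spread that may be technical only. The number of arrays limits the precision. The median absolute log2 difference within a pair was 0.0697 at 1 h, 0.0674 at 3 h, 0.0775 at 7 h, 0.171 at 22 h and 0.0551 between the 0 h arrays. The pair of 22 h was thus the widest. A spread pooled over all pairs may be too narrow for this hour, and the 22 h calls too many. At 22 h the upper quartile of intensity was 100.9 with apilimod, 87.0 with API09, 103.6 with R848 alone and 116.4 in medium, and the mean log2 intensity of the 18S ribosomal RNA control probe sets was 9.45, 10.53, 8.69 and 7.94 in the same order. All 9 macrophage markers were above 18.1, the median of all values, and they summed to 39676, 40660, 42445 and 43810 in that order. Markers of T cells, B cells, fibroblasts and epithelial or endothelial cells did not exceed 58.9, 37.2, 54.5 and 61.0 on any array at 22 h. In bulk RNA, fewer cells of a type and less RNA per cell cannot be told apart.

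After 22 h, 34.5% of the genes tested were called different between apilimod-treated cells and the controls. The pooled spread behind these calls was narrower than that of the 22 h pair. The osteoclast-type vacuolar ATPase subunit gene Atp6v0d2 had the largest rise, with lysosomal and lipid-binding genes near it, while the cytokine genes Il33 and Il10 and the calprotectin gene S100a8 were near the foot of the scale. Most tested genes of DNA replication, mitosis and complement were lower, and most genes of the proton pump and of lysosomal hydrolases were higher. Of the 12257 genes, 4232 passed an adjusted p of 0.05 in limma (34.5%), 2476 of them higher with apilimod (20.2%) and 1756 lower (14.3%). A log2 difference of at least 1 was reached by 614 of them (5.01%), by 301 of the higher genes (2.46%) and 313 of the lower genes (2.55%), and a difference of at least 3 by 7 and 13. The median difference over all genes was 0.03 against the controls, 0.00 against R848 alone and 0.06 against API09 alone.

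**Figure D1:**
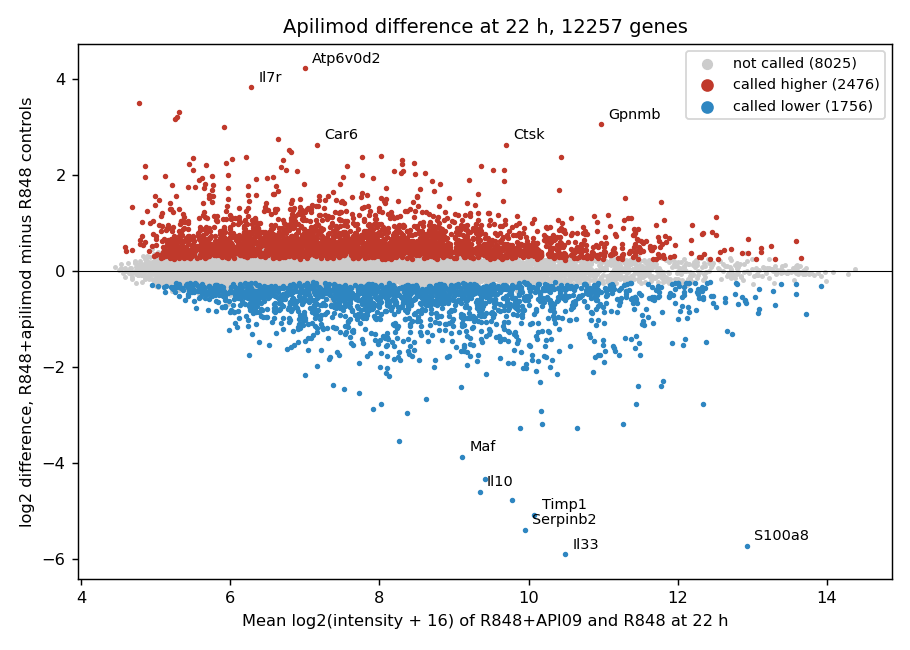
Each point is 1 of 12257 genes, plotted by the mean log2(intensity + 16) of the R848+API09 and R848 arrays at 22 h and by its log2 difference, R848+apilimod minus the R848 controls. Red points are the 2476 genes called higher, blue points the 1756 called lower at an adjusted p of 0.05, and grey points were not called; the falls reach further from 0 than the rises.

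The choice of control changed the balance of rises and falls. All 4232 genes had the same sign against each control array alone. Against R848 alone 4821 genes were called (39.3%), 2324 higher (19%) and 2497 lower (20.4%), and 3803 of the 4232 genes were among them (89.9% of those calls, and 78.9% of the calls against R848 alone). Against R848+API09 alone, the dimmer array, 5859 genes were called (47.8%), 3803 higher (31%) and 2056 lower (16.8%). After quantile normalization, with both controls, 4941 were called (40.4%), 2594 higher (21.2%) and 2347 lower (19.2%). What the dim array added to these counts was not tested. The fits against a single control array take no spread from the 22 h pair, which was the widest. Their standard errors can be narrower although 1 control array replaces 2, as for Atp6v0d2 at 0.13 against 0.20. Their larger counts are therefore no stronger evidence.

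The 15 genes with the largest rises included components of the lysosome, surface receptors and a fatty acid-binding protein. Atp6v0d2 encodes the d2 subunit of the membrane sector of the vacuolar proton pump, an isoform known from osteoclasts and macrophages. Its intensity was 2351 with apilimod, against 86.6 with API09, 143 with R848 alone and 434 in medium. The apilimod array was far above the other arrays, and the controls were both below medium. The log2 difference was 4.21 ± 0.20 (log2 difference and its standard error, 1 array against 2, on the log2(intensity + 16) scale used throughout). Il7r, the interleukin-7 receptor alpha chain, was at 1088 with apilimod, against 44.7 with API09, 83.9 with R848 alone and 99.2 in medium, a difference of 3.83 ± 0.22. Gpnmb, a transmembrane glycoprotein of lysosomes and melanosomes, was at 16672 with apilimod, against 2018 with API09, 1968 with R848 alone and 4562 in medium, a difference of 3.05 ± 0.10. For both genes the apilimod array stood far above the other 3 arrays.

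Ctsk encodes cathepsin K, the collagen-degrading protease of osteoclast lysosomes, and was at 5128 with apilimod, against 728 with API09, 915 with R848 alone and 1060.4 in medium, a difference of 2.63 ± 0.13. Fabp3, a cytosolic fatty acid-binding protein, had 376 with apilimod, against 20.8 with API09, 26.9 with R848 alone and 27.8 in medium, a difference of 3.30 ± 0.14. Tent5c, a poly(A) polymerase, had 292 with apilimod, against 11.9 with API09, 10.8 with R848 alone and 9.58 in medium, a difference of 3.49 ± 0.14. The Fabp3 and Tent5c signals of the other 3 arrays were near or below 18.1, the median of all values, so that of the 22 h arrays only the apilimod array was bright. The zinc transporter gene Slc39a2 rose by 3.21, the kinase gene Sgk1 by 3.15, the serpin gene Serpinb9b by 2.98 and the antiviral gene Rsad2 by 2.74. Itpr2, an endoplasmic reticulum calcium channel, rose by 2.52, the chemerin-binding receptor gene Ccrl2 by 2.47, and the creatine transporter gene Slc6a8 by 2.37.

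Car6 and Rgs2 differed from the other rises in how they stood against medium or against an earlier hour. Car6, a carbonic anhydrase, was at 867 with apilimod, against 101 with API09, 160.0 with R848 alone and 31 in medium at 22 h, a difference of 2.62 ± 0.19, whereas at 7 h its 4 arrays lay between 28.5 and 36.6. Rgs2, a regulator of G protein signalling, was at 1343 with apilimod, against 232 with API09, 256 with R848 alone and 1123 in medium, a difference of 2.39 ± 0.15. The apilimod level of Rgs2 was near that of medium, and both R848 controls were low. The 15 rises had adjusted p-values of up to 2.29e-06, and against R848 alone their differences ran from 2.30 to 3.90.

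The largest falls were led by genes that were bright in the R848 controls and dim in medium. Il33 encodes an alarmin cytokine of the interleukin-1 family. Its intensity was 8.10 with apilimod, against 1313 with API09, 1540.0 with R848 alone and 5.56 in medium. The controls were bright and did not overlap with the apilimod array, which was as dim as medium. The difference was -5.90 ± 0.10, and S100a8, 1 of the chains of the antimicrobial protein calprotectin, followed with -5.71 ± 0.12. S100a8 was at 133 with apilimod, against 8446 with API09, 7189 with R848 alone and 12.2 in medium, so that the apilimod array lay between medium and the controls. Because 16 was added before taking logs, differences that end in the dim range understate the ratio of intensities.

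Protease inhibitors came next. Serpinb2, plasminogen activator inhibitor 2, was at 7.70 with apilimod, against 1158 with API09, 819 with R848 alone and 8.17 in medium, a difference of -5.38 ± 0.17. Timp1, an inhibitor of matrix metalloproteinases, was at 16.2 with apilimod, against 899 with API09, 1259.8 with R848 alone and 24.3 in medium, a difference of -5.07 ± 0.18. Wfdc21, which carries a whey acidic protein domain, fell by 4.78. Il10 encodes the main anti-inflammatory cytokine of macrophages, and Maf encodes a transcription factor that is known to drive it. Il10 was at 11 with apilimod, against 635 with API09, 636 with R848 alone and 18.2 in medium, a difference of -4.59 ± 0.09, and Maf at 21.8 with apilimod, against 543 with API09, 530.0 with R848 alone and 55.8 in medium, a difference of -3.87 ± 0.14. Both genes were bright in the 2 controls and dim with apilimod, where Maf was also below its level in medium.

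The other large falls were of Fpr2, a formyl peptide receptor (-4.34), Lipg, endothelial lipase (-3.53), Upp1, uridine phosphorylase 1 (-3.27), Lix1 (-3.27), Cfp, the complement factor properdin (-3.19), Slamf9, a receptor of the SLAM family (-3.18), Aif1, an actin-binding protein of macrophages (-2.97), and Marcks, a membrane-bound substrate of protein kinase C (-2.91). Cfp, Slamf9 and Aif1 were lower with apilimod than in medium, at 252 against 742, 112 against 179 and 26.4 against 95.5. The adjusted p-values of the 15 falls did not exceed 2.43e-07. These 30 genes were chosen from called genes with the same sign against each control alone, so that agreement is part of the choice. Other bright probe sets existed for 13 of them, 27 in number, and all 27 had the same sign, 19 of them called. Some genes named below had other probe sets of the opposite sign.

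**Figure D2:**
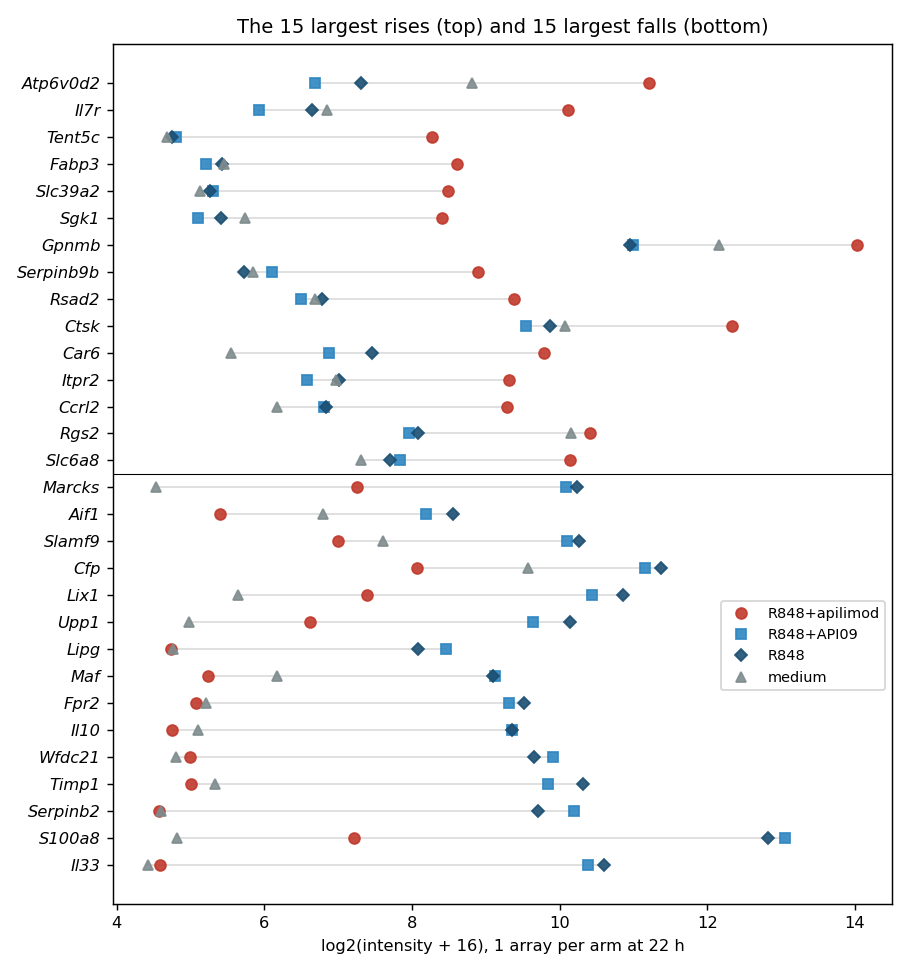
The log2(intensity + 16) of the 15 genes with the largest rises (above the line) and the 15 with the largest falls (below it) is shown on the 4 arrays at 22 h, 1 array per arm. With apilimod, Atp6v0d2 reached an intensity of 2351 and Il33 stood at 8.10, next to medium at 5.56. Both controls lay on the same side of the apilimod array for every gene, which the choice of genes required.

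Most tested genes of the vacuolar ATPase, which acidifies lysosomes, and of the enzymes inside lysosomes rose in apilimod-treated cells, where 20.2% of all genes rose and 14.3% fell. In the V1 sector, the cytosolic part that splits ATP, 8 of 8 subunit genes rose, with a median of 0.73 against 0.03 over all genes. Atp6v1c1 was at 7547 with apilimod, against 3625 with API09 and 3572 with R848 alone, a difference of 1.07 ± 0.09. Atp6v1d rose by 1.06 ± 0.09, Atp6v1f by 0.87 ± 0.10 and the catalytic subunit gene Atp6v1a by 0.75 ± 0.09. In the V0 sector, the membrane part that carries protons, 7 of 9 genes rose and 0 fell (median 0.59), among them Tcirg1 by 0.79, Atp6v0b by 0.73 and Atp6v0e by 0.61 beside Atp6v0d2. At 7 h, when 9.81% of all genes were called higher and 9.81% lower, 7 of the 8 V1 genes (median 0.77) and 8 of the 9 V0 genes (median 0.50) were higher.

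Of 30 lysosomal hydrolase genes, 20 rose and 3 fell (median 0.53). The sulphatase gene Arsb was at 845 with apilimod, against 189 with API09 and 215 with R848 alone, a difference of 1.98 ± 0.11, and Gla, alpha-galactosidase A, was at 1943 with apilimod, against 616 with API09 and 638 with R848 alone, a difference of 1.61 ± 0.08. Each of the 2 genes was about as high in the 2 controls and well above them with apilimod. Ctsc, cathepsin C, went the other way, with 2724 with apilimod, against 6554 with API09 and 6992 with R848 alone, a difference of -1.31 ± 0.09. Of 17 lysosomal membrane protein genes, 11 rose and 2 fell (median 0.41). After Gpnmb the rises were led by Clcn7, a chloride and proton exchanger, at 1.36 ± 0.12, Npc1, a cholesterol exporter, at 0.98 ± 0.12, and Mcoln1, a calcium channel gated by the product of PIKfyve, at 0.97 ± 0.09. Of 2 other bright probe sets of Clcn7, only 1 had the same sign. The macrophage lysosomal marker Cd68 rose by 0.78 ± 0.10.

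TFEB and TFE3 bind an element in the promoters of lysosomal genes whose core can be written TCACGTGA. This palindrome, which contains the general E-box CACGTG and reads alike on both strands, was searched in RefSeq promoters of GRCm38.p6 from 250 bases before to 50 after each gene start. It was found in 304 of 27025 promoters (1.12%) and in 207 of the 9933 genes tested that had one (2.08%). It was held by 72 of 2039 genes called higher (3.53%) and 20 of 1438 called lower (1.39%). Among 53 vacuolar ATPase and lysosomal genes 10 held it (18.9%), 8 of which rose and 2 of which, Pip4p1 and Cln3, were not called. Most tested genes of these lists rose in any case. The counts were 8 of 8 V1, 7 of 9 V0, 20 of 30 hydrolase and 11 of 17 membrane protein genes. A link between the element and the rises was not tested. Among genes called higher by at least 1 log2 unit, 4 of 250 held it (1.60%), near the share of all tested genes. TCATGTGA, searched on both strands, was in 1.15% of all promoters and 0.946% of tested genes. It was in 1.77% of genes called higher and 0.348% of those called lower. CACGTG was in 8.09% of all promoters, 11.3% of tested genes, 13.4% of genes called higher and 10.9% of those called lower. A match describes the letters and shows no binding. The 4 holders with the largest rises among the vacuolar ATPase and lysosomal genes are printed 5′ to 3′ on the strand of the gene, with the matches to TCACGTGA in capitals.
Gla (chrX:134600956-134601255, minus strand): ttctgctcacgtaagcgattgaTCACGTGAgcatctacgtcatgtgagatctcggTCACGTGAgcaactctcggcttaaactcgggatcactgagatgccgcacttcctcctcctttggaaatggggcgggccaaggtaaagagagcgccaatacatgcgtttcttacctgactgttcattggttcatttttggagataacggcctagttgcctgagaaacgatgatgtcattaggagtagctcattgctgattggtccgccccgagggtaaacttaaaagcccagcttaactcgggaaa
Clcn7 (chr17:25133141-25133440, plus strand): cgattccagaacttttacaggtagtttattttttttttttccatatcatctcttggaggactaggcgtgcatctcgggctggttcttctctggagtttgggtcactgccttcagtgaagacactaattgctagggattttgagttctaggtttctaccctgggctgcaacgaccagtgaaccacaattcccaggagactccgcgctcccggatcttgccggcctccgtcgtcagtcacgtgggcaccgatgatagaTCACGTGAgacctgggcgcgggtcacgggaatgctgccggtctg
Mcoln1 (chr8:3500269-3500568, plus strand): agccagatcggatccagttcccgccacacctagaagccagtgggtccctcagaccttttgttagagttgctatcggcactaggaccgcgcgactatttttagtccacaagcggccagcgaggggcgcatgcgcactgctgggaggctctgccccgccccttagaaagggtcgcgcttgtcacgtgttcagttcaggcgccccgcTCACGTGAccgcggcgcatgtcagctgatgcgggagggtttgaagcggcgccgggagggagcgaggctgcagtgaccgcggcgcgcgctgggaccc
Ctsd (chr7:142387778-142388077, minus strand): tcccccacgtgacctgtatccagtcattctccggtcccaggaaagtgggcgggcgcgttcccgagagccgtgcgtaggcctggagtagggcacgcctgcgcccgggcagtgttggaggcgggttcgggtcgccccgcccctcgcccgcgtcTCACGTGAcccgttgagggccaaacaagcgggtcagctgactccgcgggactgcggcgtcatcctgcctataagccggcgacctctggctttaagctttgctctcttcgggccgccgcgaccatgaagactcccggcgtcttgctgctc
Gla held 2 matches. Ctsd, the gene of the aspartic protease cathepsin D, rose by 0.75.

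Genes of the PIKfyve complex and of MiT/TFE signalling were called at shares near that of all genes (34.5%). Pikfyve was at 90.5 with apilimod, against 61.7 with API09, 87.2 with R848 alone and 87.1 in medium, a difference of 0.25 ± 0.15 (adjusted p = 0.235). The apilimod array was near R848 alone and medium, and the dim API09 array was further below, against which alone the gene was called (0.46, adjusted p = 0.00851). Of 11 genes of the PIKfyve complex and endosomal phosphoinositides, 2 rose and 1 fell (median 0.07). Vac14, the scaffold of the complex, rose by 0.50 ± 0.12 and the phosphatase gene Mtmr4 by 0.56 ± 0.11. Mtm1, myotubularin, a phosphatase of phosphatidylinositol 3-phosphate, was at 311 with apilimod, against 895 with API09 and 913 with R848 alone, a difference of -1.49 ± 0.14, while at 7 h its difference had been -0.32 ± 0.14. Of 2 other bright probe sets of Mtm1, only 1 had the same sign. Tfeb was at 111 with apilimod, against 106 with API09, 107 with R848 alone and 143 in medium, a difference of 0.05 ± 0.08 that was not called. Of 14 genes of the MiT/TFE, folliculin and Rag list, 5 rose and 0 fell (median 0.22). They included Fnip2, a folliculin partner (1.11), the Rag GTPase gene Rragc (0.71), Lamtor4 of the lysosomal Ragulator scaffold (0.42) and the folliculin gene Flcn (0.41). Of 27 autophagy genes, 15 rose, 0 fell and 12 were not called, where 20.2% of all genes rose at 22 h and 9.81% were higher at 7 h (median 0.33, and 9 higher at 7 h). Atg7, the enzyme that activates ATG8 proteins, was at 699 with apilimod, against 229 with API09 and 283 with R848 alone, a difference of 1.40 ± 0.12. The receptor gene Sqstm1 rose by 1.12 ± 0.10, Atg12 by 1.01 ± 0.11 and the receptor gene Nbr1 by 0.90 ± 0.10.

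Genes of cholesterol and fatty acid synthesis, which the SREBP factors control, lay on the low side at 22 h although they had been high with apilimod at 7 h. Of 20 cholesterol genes, 2 were higher and 11 lower at 22 h (median -0.34), against 18 higher and 0 lower at 7 h (median 1.32). The 2 hours share no array, and the difference was called lower at 22 h than at 7 h in 18 of the 20, as in 8.77% of all genes. Idi1, which makes dimethylallyl diphosphate, was at 3652 with apilimod, against 1253 with API09 and 1328 with R848 alone at 7 h. At 22 h it was at 340.3 with apilimod, against 962 with API09 and 1073 with R848 alone. The apilimod array was thus the highest of the 3 at 7 h and the lowest at 22 h, with a change in the difference of -3.02 ± 0.17. Hmgcs1, HMG-CoA synthase, had differences of 1.26 ± 0.09 at 7 h and -1.08 ± 0.09 at 22 h, and Msmo1, a methylsterol oxidase, 1.03 ± 0.10 and -0.74 ± 0.10. Insig1, which retains SREBPs in the endoplasmic reticulum, stayed higher at both hours, by 1.51 ± 0.12 and 0.83 ± 0.12.

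Fatty acid synthesis genes numbered 2 higher and 8 lower of 14 at 22 h (median -0.40), against 11 higher and 0 lower at 7 h (median 0.71), and 10 had a lower difference at 22 h. Fasn, fatty acid synthase, was at 1309 with apilimod, against 453 with API09 and 537 with R848 alone at 7 h. At 22 h it was at 109 with apilimod, against 212 with API09 and 248 with R848 alone, with a difference of -0.97 ± 0.12. The desaturase gene Scd2 fell by 0.93, the elongase gene Elovl5 by 0.82 and Acaca, acetyl-CoA carboxylase, by 0.52 at 22 h. The 1 other bright probe set of Acaca did not have the same sign. Rnf145, a ubiquitin ligase of the sterol pathway, had the largest negative change of any gene between the hours at -3.40 ± 0.14, with 1496 with apilimod, against 382 with API09 and 382 with R848 alone at 7 h. At 22 h Rnf145 was at 87.2 with apilimod, against 252 with API09 and 291 with R848 alone.

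**Figure D3:**
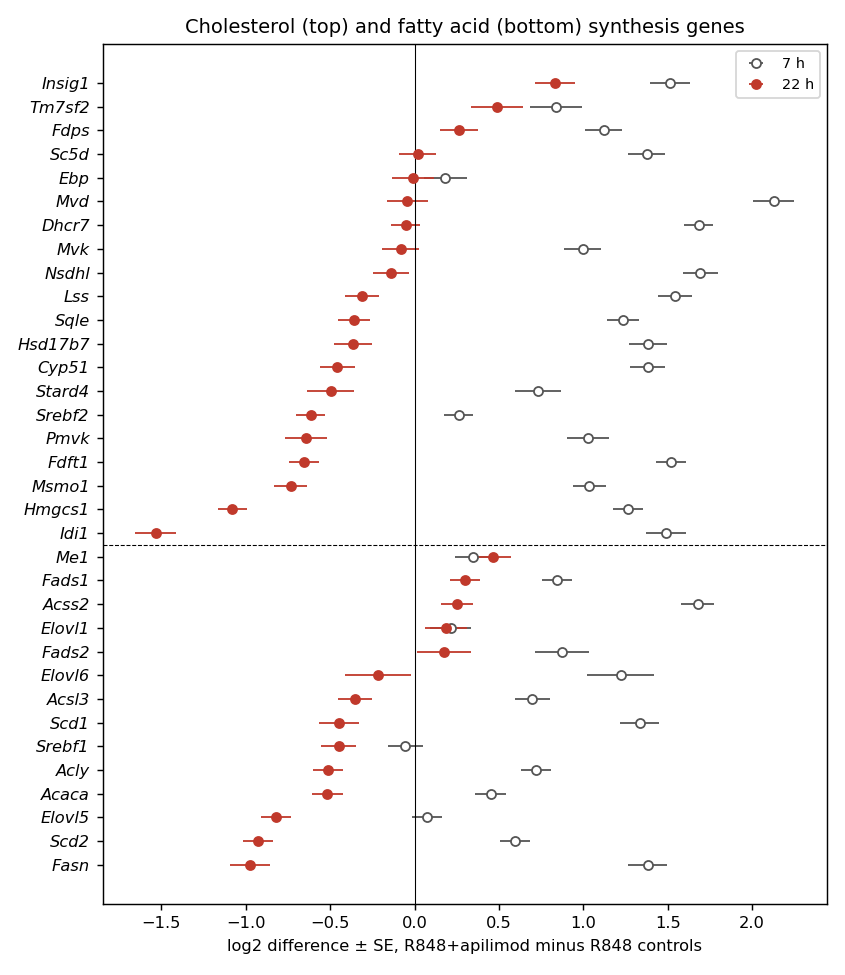
Points are the log2 differences, R848+apilimod minus the R848 controls, of 20 cholesterol synthesis genes (above the dashed line) and 14 fatty acid synthesis genes (below it), at 7 h (open) and 22 h (filled), with standard errors as bars. Most filled points lie left of their open partners, as for Idi1 at 1.49 at 7 h and -1.53 at 22 h.

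Cholesterol export and lipid storage genes moved in other ways, where 20.2% of all genes rose and 14.3% fell at 22 h. Of 7 targets of the oxysterol receptor LXR, 2 rose (Smpdl3a, a phosphodiesterase, by 0.69 and Nr1h3, LXR alpha, by 0.46) and 1 fell, the exporter gene Abcg1 (-0.38; median of the list -0.09). Abca1, the other main cholesterol exporter, had 42 with apilimod, against 491 with API09 and 606 with R848 alone at 7 h, where the apilimod array was low. At 22 h it had 74 with apilimod, against 68.8 with API09 and 90 with R848 alone, within the range of the controls, and the change between hours of 3.20 ± 0.21 was the largest positive one of all genes. Of 14 genes of fatty acid binding and lipid storage, 5 rose and 3 fell (median 0.15). Fabp4, a fatty acid-binding protein of macrophages and fat cells, was at 1334 with apilimod, against 276 with API09 and 332 with R848 alone, a difference of 2.08 ± 0.16. Hilpda, a lipid droplet protein, was at 1211 with apilimod, against 260.5 with API09 and 293 with R848 alone, a difference of 2.07 ± 0.11. Lpl, lipoprotein lipase, fell by 0.82.

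Stress pathways were mixed at 22 h, when 20.2% of all genes rose and 14.3% fell, against 9.81% in each direction at 7 h. Of 23 amino acid response genes under ATF4, 6 rose and 6 fell (median -0.01), against 21 higher at 7 h (median 0.48). In 14 the difference was lower at 22 h than at 7 h (8.77% of all genes). Ddit3, the stress factor CHOP, rose by 1.14 ± 0.13 and the cystine transporter gene Slc7a11 by 0.90 ± 0.11. Chac1, a glutathione-degrading enzyme, was at 79.2 with apilimod, against 263 with API09 and 322 with R848 alone, a difference of -1.69 ± 0.14, and the leucine transporter gene Slc7a5 fell by 1.25. Of 22 genes of the endoplasmic reticulum unfolded protein response, 10 rose and 2 fell (median 0.29, and 0.18 against R848 alone). Ern1, the stress sensor IRE1 alpha, rose by 1.16 ± 0.10, Syvn1, a ligase of protein degradation, by 0.75 and the chaperone gene Dnajb9 by 0.65, while Herpud1 fell by 0.57. Of 16 NRF2 genes 6 rose and 2 fell (median 0.06). Gstm1, a glutathione transferase, was at 501 with apilimod, against 77.4 with API09 and 100.4 with R848 alone at 22 h, a difference of 2.31 ± 0.12 against 0.23 ± 0.12 at 7 h. The reductase gene Srxn1 rose by 1.03 and Gsr, glutathione reductase, fell by 0.73. Of 14 cytosolic heat shock genes 1 rose (Hspa1b, 1.11) and 3 fell (Chordc1 -0.41, Ahsa1 -0.29 and Hspa4 -0.28), with a median of -0.20. Of 3 other bright probe sets of Hspa4, 1 had the same sign and 0 were called with it.

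The inflammatory cytokine genes did not move as 1 group. Of 20 tested, 4 rose and 7 fell (median -0.07), against 4 and 11 at 7 h (median -0.56). Over all genes the shares were 20.2% and 14.3% at 22 h and 9.81% each at 7 h. Il12b, the subunit shared by interleukins 12 and 23, was dim on all 4 arrays at 22 h, at 11.4 with apilimod, against 11.6 with API09, 10.8 with R848 alone and 8.18 in medium, and its difference of 0.01 ± 0.12 was not called. Il23a, the other chain of interleukin-23, was at 30.6 with apilimod, against 13.7 with API09, 10.9 with R848 alone and 11.1 in medium, a difference of 0.72 ± 0.10 near the dim end. Il1b, interleukin-1 beta, was at 393 with apilimod, against 2599 with API09, 2949.8 with R848 alone and 26.9 in medium, a difference of -2.77 ± 0.17. The apilimod array was well below both controls but above medium. At 7 h the Il1b difference had been -5.05 ± 0.17, and the change between the hours was 2.28 ± 0.24. Il1a, interleukin-1 alpha, was at 258 with apilimod, against 208 with API09 and 247 with R848 alone at 22 h, and its difference of 0.18 ± 0.18 was not called, while at 7 h it had 223 with apilimod, against 1843 with API09 and 1988 with R848 alone. Il6 was at 105 with apilimod, against 214 with API09 and 211 with R848 alone, a difference of -0.91 ± 0.10, and Il18 fell by 1.41 ± 0.13. Tnf was at 839 with apilimod, against 771 with API09 and 924 with R848 alone, a difference of -0.01 ± 0.11 that was not called, after 1.15 ± 0.11 at 7 h. Ifnb1, interferon beta, lay between 15.4 and 17.3 on the 4 arrays, in the dim range, and was not called.

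Of 15 chemokine genes, 5 rose and 4 fell at 22 h (median 0.21, and 0.08 against R848 alone), against 2 and 7 at 7 h. The shares of all genes were 20.2% and 14.3% at 22 h and 9.81% each at 7 h. Cxcl16, a membrane-bound chemokine and scavenger receptor, was at 1196 with apilimod, against 309 with API09 and 411 with R848 alone, a difference of 1.70 ± 0.14. Cxcl10, which attracts activated T cells, had 123 with apilimod, against 52 with API09 and 61.5 with R848 alone, a difference of 0.93 ± 0.11, where at 7 h it had -1.47 ± 0.11. Ccl5 was at 713 with apilimod, against 1834 with API09 and 1736 with R848 alone, a difference of -1.30 ± 0.10, Ccl4 fell by 1.25 and Ccl6 by 1.59. In all 5 genes both controls lay on the same side of the apilimod array, as in every gene called at 22 h. Of 16 genes of NF-kB subunits and feedback, 7 rose and 4 fell (median 0.18). The signalling adaptor gene Traf1 rose by 1.77 ± 0.19 and the inhibitor gene Nfkbie by 1.69 ± 0.23, for which API09 (25.2) and R848 alone (54.1) differed, so that against R848 alone the rise was 1.31. Nfkbiz, a nuclear cofactor of NF-kB, was at 975 with apilimod, against 2699 with API09 and 2563 with R848 alone, a difference of -1.42 ± 0.09, and Bcl3, another nuclear member, fell by 1.10 ± 0.10.

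Of 27 immediate-early and MAP kinase phosphatase genes, 4 rose and 10 fell (median -0.18), against 3 and 17 at 7 h (median -0.67). All genes gave 20.2% and 14.3% at 22 h and 9.81% each at 7 h. Socs3, an inhibitor of cytokine receptor signalling that interleukin-10 induces, was at 737 with apilimod, against 5310.5 with API09, 5005 with R848 alone and 72.3 in medium, a difference of -2.78 ± 0.10. Dusp2, a nuclear MAP kinase phosphatase, was at 46.4 with apilimod, against 349 with API09, 409.7 with R848 alone and 45.2 in medium, a difference of -2.66 ± 0.11, level with medium. Dusp4, a phosphatase of the same family, went the other way with 444 with apilimod, against 81 with API09, 103 with R848 alone and 98.7 in medium, a difference of 2.10 ± 0.13. Zfp36, tristetraprolin, which degrades cytokine mRNAs, fell by 1.61 ± 0.10.

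Interferon-stimulated genes were lower with apilimod at 7 h and on the higher side at 22 h. Of 28 tested, 13 rose and 4 fell at 22 h (median 0.32, and 0.21 against R848 alone), against 1 and 19 at 7 h (median -0.66). Over all genes 20.2% rose and 14.3% fell at 22 h, and 9.81% each at 7 h. The difference was called higher at 22 h than at 7 h in 23 of the 28 (11.3% of all genes). Rsad2, viperin, had 651 with apilimod, against 74.4 with API09 and 93.9 with R848 alone at 22 h, a difference of 2.74 ± 0.16. Unlike the others, Rsad2 was already called higher at 7 h, by 1.05 ± 0.16. Ifit1, which binds viral RNA, had 469 with apilimod, against 1612 with API09 and 1599 with R848 alone at 7 h. At 22 h it had 127 with apilimod, against 42.4 with API09 and 68.9 with R848 alone, a difference of 1.02 ± 0.16. All 3 arrays of Ifit1 were dimmer at 22 h, and the apilimod array was the lowest at 7 h and the highest at 22 h. Ifit2 rose by 1.36 ± 0.20 and Oasl1 by 1.10 ± 0.16.

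Antigen presentation genes of class I gave 3 higher and 1 lower of 12 (median 0.00), with the peptide transporter genes Tap2 at 0.69 and Tap1 at 0.33, the regulator gene Nlrc5 at 0.43 and the immunoproteasome gene Psmb9 at -0.32. Class II genes gave 3 higher and 0 lower of 6 (median 0.29), and the 3 that rose were dim. H2-Ab1 was at 67.2 with apilimod, against 23.3 with API09 and 26.7 with R848 alone, a difference of 1.02 ± 0.09, H2-Aa rose by 0.91 and H2-Eb1 by 0.32. Of 19 costimulation and adhesion genes 7 rose and 4 fell (median -0.04). For these lists the shares over all genes were 20.2% higher and 14.3% lower. Cd83, a marker of mature dendritic cells, was at 1556 with apilimod, against 387 with API09 and 487 with R848 alone at 22 h, a difference of 1.80 ± 0.14 after -1.12 ± 0.14 at 7 h. Cd274, the ligand of the PD-1 receptor, rose by 1.18 ± 0.10 and Cd86, a T cell costimulator, by 1.05 ± 0.18. Itgam, the CD11b integrin chain, was at 298 with apilimod, against 1251 with API09, 1215 with R848 alone and 211 in medium, a difference of -1.99 ± 0.10.

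Of 19 Toll-like receptor and adaptor genes 3 rose and 3 fell (median -0.02), beside 20.2% and 14.3% of all genes. Tlr7, the receptor of R848, was at 226 with apilimod, against 133 with API09, 171 with R848 alone and 659 in medium, a difference of 0.54 ± 0.12 (adjusted p = 0.00565). The apilimod array was above the controls and all 3 were below medium. Averaged over its probe sets, Tlr7 had a difference of 0.22 that was not called. Tlr13, a sensor of bacterial ribosomal RNA, rose by 0.78, and the surface receptor genes Tlr1 and Tlr4 fell by 0.79 and 0.71. Of 2 other bright probe sets of Tlr4, 1 had the same sign and 0 were called with it. Of 29 macrophage receptor and identity genes, 7 rose and 10 fell (median -0.17). Trem2, a lipid-sensing receptor, was at 1665 with apilimod, against 289 with API09, 394 with R848 alone and 2265 in medium, a difference of 2.25 ± 0.14. Clec4e, a receptor of mycobacterial glycolipid, was at 9495 with apilimod, against 3353 with API09 and 3665 with R848 alone, a difference of 1.43 ± 0.09. Fcgr1, the high-affinity IgG receptor, was at 687 with apilimod, against 2240.1 with API09 and 2466 with R848 alone, a difference of -1.75 ± 0.13, and Spi1, the myeloid factor PU.1, fell by 0.61. Of the 9 macrophage markers 4 fell and 1, Cd68, rose. Of the markers of other cell types that could be tested, the fibroblast gene Dcn fell by 0.48 and the epithelial gene Epcam rose by 0.31, both dim, and their part in any result was not tested.

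All 7 complement genes tested fell, with a median of -2.17 (14.3% of all genes fell). C1qb, C1qa and C1qc encode the chains of C1q, which starts the classical pathway. C1qb was at 22.4 with apilimod, against 238 with API09, 249.7 with R848 alone and 37.9 in medium, a difference of -2.76 ± 0.14. C1qa was at 16.1 with apilimod, against 133 with API09, 168 with R848 alone and 28.5 in medium, a difference of -2.37 ± 0.12. C1qc was at 12.5 with apilimod, against 84.5 with API09, 149 with R848 alone and 18.9 in medium, a difference of -2.17 ± 0.21. For each chain the 2 controls were the brightest arrays and apilimod the dimmest of the 4, a little below medium. At 7 h, when all arrays of C1qb lay between 41 and 61.9, its difference was -0.41 ± 0.14. Of the 7 genes, 4 had a lower and 1 a higher difference at 22 h than at 7 h, beside 8.77% and 11.3% of all genes.

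Effector genes followed no single direction, where 20.2% of all genes rose and 14.3% fell. Of 8 genes of nitric oxide, arginine and itaconate, 4 rose and 1 fell (median 0.43). Arg2, mitochondrial arginase, rose by 1.74 ± 0.20, Asl, which makes arginine, by 0.93 and Gch1, which makes the cofactor of nitric oxide synthase, by 0.53. Nos2, the inducible synthase, was at 132 with apilimod, against 77.8 with API09 and 114 with R848 alone, a difference of 0.42 ± 0.19 that was not called against the controls but was called against API09 alone (0.66, adjusted p = 0.0108). Of 14 prostaglandin genes 5 rose and 3 fell (median 0.10). Ptgir, the prostacyclin receptor, rose by 1.50 ± 0.12 and Hpgds, a prostaglandin D synthase, by 0.97, while Ptgs2, cyclooxygenase 2, was at 3921 with apilimod, against 6296 with API09 and 5088 with R848 alone, a difference of -0.53 ± 0.13. The phospholipase gene Pla2g4a and Alox5ap, an activator of leukotriene synthesis, fell by 0.66 and 0.57.

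Of 13 plasminogen and matrix genes 4 rose and 4 fell (median -0.15), beside 20.2% and 14.3% of all genes. Tgm2, tissue transglutaminase, was at 309 with apilimod, against 38.1 with API09 and 62.2 with R848 alone, a difference of 2.32 ± 0.17, and Mmp9, a gelatinase, was at 17.8 with apilimod, against 132 with API09 and 216 with R848 alone, a difference of -2.45 ± 0.21. Tnc, tenascin C, was at 39.9 with apilimod, against 176 with API09 and 217 with R848 alone, a difference of -1.92 ± 0.14, after -4.77 ± 0.14 at 7 h. Of 10 acute-phase and antimicrobial genes 1 rose and 4 fell (median -0.07). Lcn2, which binds bacterial siderophores, was at 1913 with apilimod, against 5661 with API09, 5020.3 with R848 alone and 8.91 in medium, a difference of -1.47 ± 0.13, Saa3 fell by 0.70 and Cfb by 0.67. Of 13 osteoclast genes 7 rose and 2 fell (median 0.36, and 4 and 5 at 7 h), with Ckb, brain creatine kinase, at 3119.5 with apilimod, against 698 with API09 and 745 with R848 alone, a difference of 2.09 ± 0.09, next to Atp6v0d2 and Ctsk. Of 15 iron genes 7 rose and 2 fell (median 0.22), among them the mitochondrial importer gene Slc25a37 by 1.18, Hamp, hepcidin, by 1.03, the exporter gene Slc40a1 by 1.03 and the endosomal importer gene Slc11a2 by 0.95.

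Cell cycle genes were lower with apilimod almost throughout, where 14.3% of all genes fell. Of 27 mitosis genes all 27 fell at 22 h (median -1.43), where at 7 h 2 were higher and 0 lower (median 0.08). The difference was lower at 22 h than at 7 h in all 27 (8.77% of all genes). At 7 h 9.81% of all genes were called in each direction. Ccnb2, cyclin B2, was at 222 with apilimod, against 899 with API09, 1019.8 with R848 alone and 2004 in medium, a difference of -2.03 ± 0.10. Kif20a, a kinesin of cell division, was at 52.1 with apilimod, against 244 with API09, 277 with R848 alone and 538 in medium, a difference of -2.02 ± 0.11. The arrays ran in 1 order in both genes, with apilimod lowest, then API09, then R848 alone, and medium highest. Nuf2, of the kinetochore, fell by 1.95 ± 0.11 and Top2a, topoisomerase 2 alpha, by 1.88 ± 0.12. In 26 of the 27 genes apilimod was lowest and both controls were below medium. The median intensity over the list was 222 with apilimod, 574 with API09, 619.9 with R848 alone and 877 in medium.

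Of 28 DNA replication genes 26 fell at 22 h (median -1.09) and 0 rose, against 2 higher and 5 lower at 7 h (median -0.02). In 25 the difference was lower at 22 h than at 7 h (8.77% of all genes). Over all genes 14.3% fell and 20.2% rose at 22 h, and 9.81% were called in each direction at 7 h. Tk1, thymidine kinase, was at 246 with apilimod, against 942 with API09, 1031 with R848 alone and 1667 in medium, a difference of -1.93 ± 0.09. Rrm2, the small subunit of ribonucleotide reductase, was at 572 with apilimod, against 1985 with API09, 1951 with R848 alone and 2197 in medium, a difference of -1.76 ± 0.09. Again both controls lay between the apilimod array and medium. Uhrf1, which maintains DNA methylation, fell by 1.77 ± 0.08 and the helicase gene Mcm7 by 1.66 ± 0.08. The apilimod array was below medium in all 28 and below both controls in 27. Against R848 alone the medians were -1.58 for mitosis and -1.23 for replication, and against API09 alone -1.44 and -1.01.

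**Figure D4:**
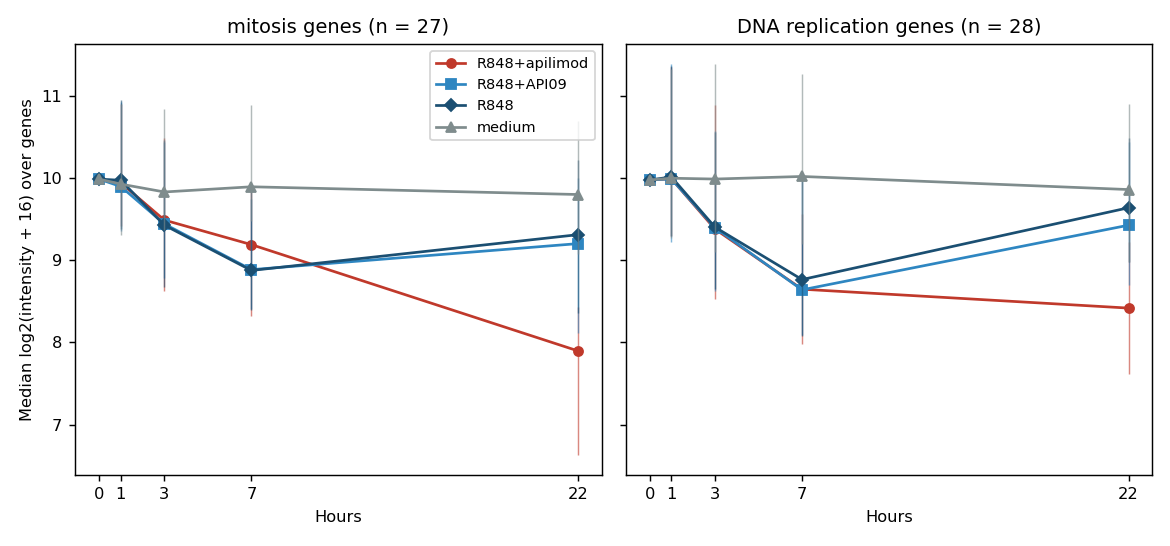
Points are the median log2(intensity + 16) over 27 mitosis genes (left) and 28 DNA replication genes (right) on 1 array per arm at 1, 3, 7 and 22 h, with the mean of the 2 medium arrays as the common point at 0 h, and thin bars span the middle 50% of the genes. The R848 arms lie together and below medium at 3 h, and at 22 h the median mitosis intensity was 222 with apilimod against 574 and 619.9 in the 2 controls.

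Ribosome biogenesis genes with Myc gave 0 higher and 12 lower of 22 (median -0.36), led by the snoRNP gene Dkc1. All genes gave 20.2% higher and 14.3% lower. Dkc1 was at 261 with apilimod, against 526 with API09 and 554 with R848 alone. The RNA polymerase I gene Polr1b was at -0.90 and the nucleolar genes Nop56 at -0.73 and Nolc1 at -0.71. At 7 h 1 was higher and 1 lower, beside 9.81% each of all genes. Cytosolic ribosomal protein genes gave 2 higher of 21 (Rpl14 0.67 and Rps6 0.50; median -0.02). Oxidative phosphorylation gave 4 higher of 28 (median 0.12), among them Sdhb of complex II at 0.42 and the complex I gene Ndufa1 at 0.40. Against API09 alone the oxidative phosphorylation count was 14 higher and 2 lower. The citric acid cycle gave 1 higher (Pdhb, 0.32) and 2 lower (Suclg2 -0.53 and Dlst -0.35) of 16 (median 0.08). Proteasome genes gave 2 higher and 5 lower of 23 (median -0.05), with the core subunit genes Psmb6 at 0.95 and Psma6 at -0.79.

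Glycolysis and hypoxia genes gave 6 higher and 6 lower of 25 (median 0.06), against 12 and 1 at 7 h. The shares over all genes were 20.2% and 14.3% at 22 h and 9.81% each at 7 h. The hexokinase gene Hk3 was at 1591 with apilimod, against 569.8 with API09 and 650.2 with R848 alone, a difference of 1.36 ± 0.10, and the glucose transporter gene Slc2a6 rose by 1.22. Pfkfb3, which makes an activator of phosphofructokinase, was at 284 with apilimod, against 794 with API09 and 742 with R848 alone, a difference of -1.39 ± 0.09, and the hypoxia-induced gene Ankrd37 fell by 1.78. Txnip, a thioredoxin-binding protein that responds to glucose, was at 1426 with apilimod, against 2790.2 with API09, 3131 with R848 alone and 2177 in medium, a difference of -1.04 ± 0.09. Of 19 p53 target and BCL2 family genes 5 rose and 2 fell (median 0.15). The survival gene Bcl2 rose by 1.05 ± 0.12, Zmat3 by 0.79 and Gadd45b by 0.65, while the death receptor gene Fas fell by 0.73 ± 0.11.

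The difference at 22 h was not a repeat of that at 7 h. At 7 h 2406 genes were called (19.6%), 1203 in each direction. Of the genes called at 22 h, 1265 were called with the same sign at 7 h, which is 29.9% of the 22 h calls and 52.6% of the 7 h calls. Another 181 were called at both hours with opposite signs, 82 of them higher at 7 h and lower at 22 h and 99 the reverse. The change between the hours was itself called in all 181. Over all genes it was called in 2458 (20.1%), 1383 with a higher (11.3%) and 1075 with a lower difference (8.77%) at 22 h. Without the R848+API09 array of 22 h that count was 3348 (27.3%), 1614 with a higher (13.2%) and 1734 with a lower difference (14.1%), and without the R848 array of 22 h it was 4573, 3067 with a higher and 1506 with a lower difference. With either array left out, the spread no longer held the 22 h pair, the widest. Of 2786 genes called at 22 h and not at 7 h, 1291 had a called change between the hours, and the others were not shown to differ.

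Among the 6 largest positive changes were, beside Abca1, Il1a, Cd83 and Tnc, the genes Smim3 (2.89 ± 0.16) and Pdcd1, the PD-1 receptor (2.88 ± 0.17). Pdcd1 was at 16.1 with apilimod, against 284 with API09 and 246 with R848 alone at 7 h and near the median of all values on the 4 arrays at 22 h, from 16.4 to 24.5. Among the 6 largest negative changes were, beside Rnf145 and Idi1, Il33 and S100a8, whose falls were larger at 22 h, Pmp22, a myelin membrane protein, and Ralgds, an exchange factor of Ral GTPases. Pmp22 was at 3776 with apilimod, against 220.5 with API09 and 215 with R848 alone at 7 h. At 22 h it was at 1344 with apilimod, against 618 with API09 and 772 with R848 alone, still higher by 0.94 ± 0.12. Ralgds had a difference of 2.75 ± 0.16 at 7 h and of 0.19 ± 0.16 at 22 h, the second of which was called against API09 alone and not against both controls.

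**Figure D5:**
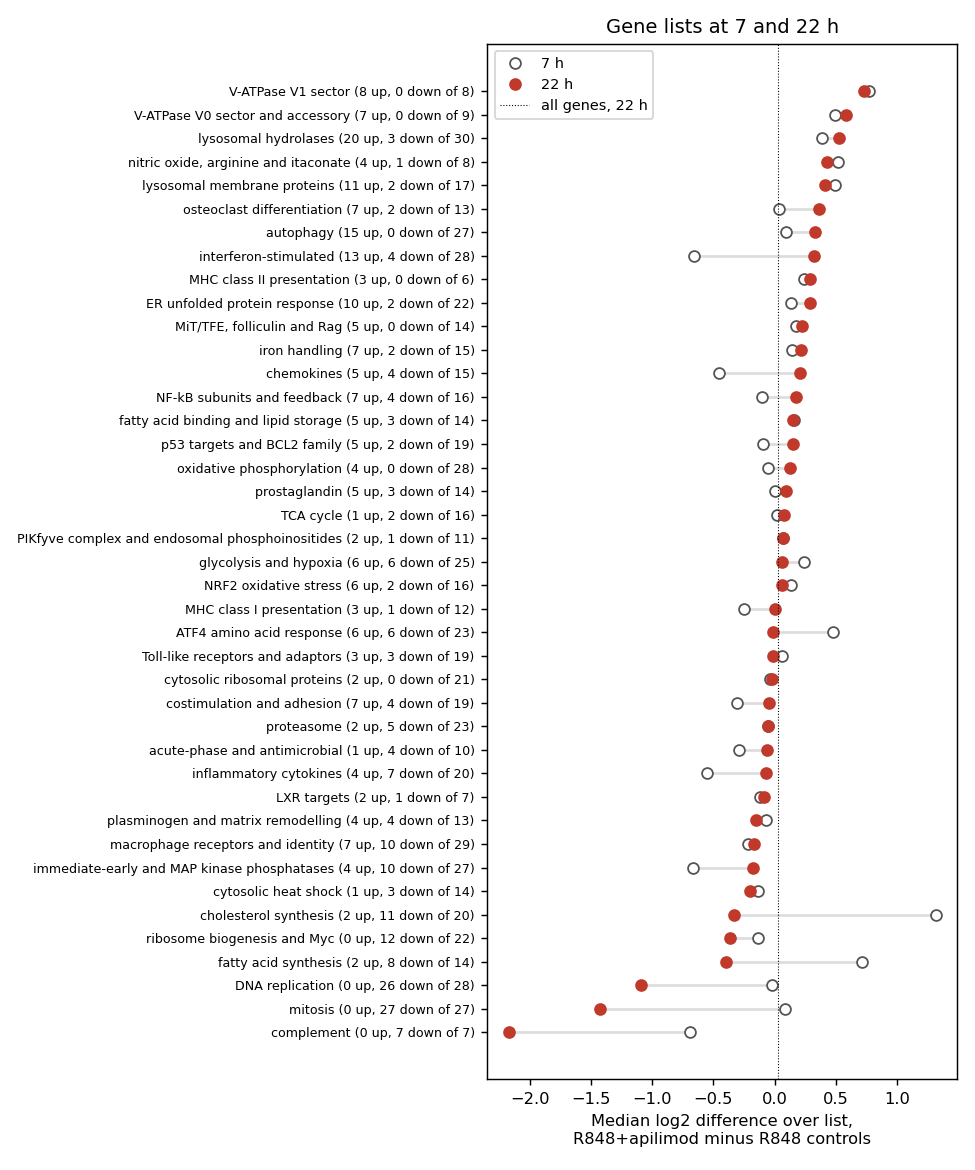
Each row is a gene list with its counts of genes called higher and lower at 22 h, and points are the median log2 difference, R848+apilimod minus the R848 controls, at 7 h (open) and 22 h (filled), with the median of all genes at 22 h (0.03) as a dotted line. The widest gaps between the hours are those of cholesterol synthesis (1.32 at 7 h and -0.34 at 22 h) and mitosis (0.08 and -1.43).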

How the data were processed

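Per the labels' protocols, total RNA was amplified with the NuGEN Ovation kit, labelled with biotin and read on 1-colour Affymetrix arrays. The authors deposited 1 linear intensity per probe set and array. How these were background-corrected, summarised and normalized is not given in the sources used here. Limma appears in the submitters' processing notes without a role. The values were used as deposited, as log2 of the intensity plus 16, per the deposited table.

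Of 45101 probe sets, 34958 had 1 gene symbol, 932 had several and were not used, and 9160, with control probe sets left out, had none. Symbols were updated through Entrez identifiers (34754 matched). Probe sets were kept where at least 3 arrays exceeded the overall median value of 18.1, and the brightest stood for its gene, which gave 12257 genes (5456 with several kept).

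Tests used limma 3.58.1 in R 4.3.3 with moderated variances, Benjamini-Hochberg adjustment over all genes and a threshold of 0.05, two-sided. Each arm and hour had its own mean, except that the R848+API09 and R848 arrays of an hour shared 1. This left 5 residual degrees of freedom and a median standard error of 0.110 for the difference at 22 h and 0.155 for its change from 7 h. The spread of the single apilimod arrays is assumed to be that of the pairs. In simulated data for the 22 h comparison with 12257 genes, the test called 76.4% of genes with a 0.5 log2 change, 100% with a change of 1 and 100% with a change of 2, with 9 of 12057 unchanged genes. For the change from 7 h the shares were 20.8%, 98.3% and 100%, with 5 unchanged genes. The simulated noise had 1 spread per gene on all arrays and no shift of a whole array. The real 22 h pair was wider, with a median absolute difference of 0.171, and shifted by a median of -0.12. These shares may therefore be too favourable for the 22 h arrays.

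The comparison, the 46 gene lists and the fixed genes were chosen with earlier results of these data known. Some genes stand in several lists, and 17 of 18 fixed genes were tested. Named genes were the 15 largest rises and 15 largest falls called at 22 h with the same sign against each control, the 6 largest called changes from 7 h in each direction, up to 4 called members of each list with the largest difference, and the fixed genes. Pip4p1 and Cln3 are named as promoter motif holders and Ctsd by its printed promoter. Alternatives were other normalizations, filters, variances and pseudocounts, the mean over probe sets, a minimum difference, and single arrays left out. Quantile normalization with R848 alone as the control was added after seeing the data.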

Additional observations from a re-analysis of the deposited data

Results flagged for a closer look

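The apilimod difference was not the same at 22 h as at 7 h in 2458 genes, by the test of the change itself in limma (adjusted p of 0.05). The values below are the log2 difference at 22 h minus that at 7 h for the named genes among them, so a positive value means a higher difference at 22 h. The hours share no array.

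Genes with a rise at 22 h that was larger than at 7 h were Atp6v0d2 (1.26), Slc39a2 (0.58), Gpnmb (0.45), Serpinb9b (1.23), Rsad2 (1.69), Car6 (2.44) and Rgs2 (2.07). Rises that were smaller at 22 h were those of Tent5c (-1.20), Sgk1 (-1.09), Ccrl2 (-1.64) and Pmp22 (-3.08). For Ralgds, whose difference at 22 h was not called, the change was -2.56.

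Falls that were larger at 22 h were those of Il33 (-2.50), S100a8 (-2.44), Timp1 (-1.14), Wfdc21 (-2.06), Il10 (-0.73), Fpr2 (-0.98), Upp1 (-1.16), Lix1 (-1.75), Cfp (-1.60), Slamf9 (-1.06) and Aif1 (-2.32). Falls that were smaller at 22 h were those of Maf (0.79), Tnc (2.85), Il6 (1.33), Il1b (2.28) and Ccl5 (1.68). The sign turned between the hours for Cd83 (2.93), Smim3 (2.89), Cxcl10 (2.40), Rnf145 (-3.40) and Idi1 (-3.02). A difference that was called at 7 h and not at 22 h belonged to Abca1 (3.20), Il1a (3.19), Pdcd1 (2.88), Il12b (0.69) and Tnf (-1.16). Il23a was called at 22 h and not at 7 h (0.80).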

How the results depend on the processing

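Under quantile normalization, arrays centred on their median, 3 other filters, the mean over probe sets, trended and robust variances and a pseudocount of 1, the count of genes called at 22 h lay between 3655 and 4941, against 4232 as reported, and quantile normalization with R848 alone as the control gave 5096. Leaving out 1 array at a time gave 3718 (without either medium array of 0 h) to 5859 (without R848 at 22 h). With a difference of at least 1 required, 614 genes were called at 22 h and 586 for the change from 7 h. That change was called in 1731 genes without R848+API09 at 7 h and in 4573 without R848 at 22 h, against 2458 as reported. No named gene that was called turned its sign in these alternatives, but the balance of rises and falls over all genes did turn. A tally over named genes did not cover every list member named above. In it 1112 values kept their side of the threshold. Ralgds, Pikfyve and Nos2 passed it only against API09 alone, and Tlr7 lost it with the mean over probe sets. Outside the tally, some called list members were not called against a single control array. They included Nlrc5 against R848 alone (0.32), and Psmb9 (-0.23) and H2-Eb1 (0.30) against API09 alone. Of the list medians, 677 moved by less than the spread allowed and 37 by more. The split of calls at 22 h was 2476 higher and 1756 lower as reported, 2324 and 2159 with centred arrays, 2594 and 2347 after quantile normalization, and 2324 and 2497 against R848 alone. For the change from 7 h it was 1383 higher and 1075 lower as reported, 1347 and 1394 with centred arrays, and 1614 and 1734 against R848 alone at 22 h. With a difference of at least 1 required, falls outnumbered rises in both, by 313 to 301 and by 318 to 268. Counts without a 22 h control array rest on a spread that lacks the 22 h pair, the widest. Dim signals limit what can be read: the background left in the deposited intensities is unknown, and a pseudocount of 16 compresses low values. No paired analysis was possible because each arm had 1 array per hour and the arms share no replicate numbers beyond that single one.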
